A study of Mus musculus with 32 samples.

Results

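The genes described here were 10 claudins that are known from particular segments of the nephron or from its precursors, namely Cldn1, Cldn2, Cldn3, Cldn4, Cldn6, Cldn7, Cldn8, Cldn10, Cldn16 and Cldn19. They were chosen by name, matched from Ensembl gene identifiers to symbols, and read in every group of all 4 count tables. They made up 10 of the 55806 genes counted. All 10 passed the low-count filter in the whole kidneys and in the sorted Six2 lineage cells, and 8 passed in the sorted Foxd1 lineage cells.

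Claudins are membrane proteins of the tight junction, the seal that joins neighbouring epithelial cells near their apical face. Which claudins a cell makes decides whether ions and water can pass between cells, since some members form pores and others form barriers. The kidney uses them segment by segment. Cldn2 forms a cation and water pore in the proximal tubule, Cldn10 forms anion or cation pores in the proximal tubule and thick ascending limb according to its isoform, and Cldn16 and Cldn19 act together in the divalent cation pathway of the thick ascending limb. Cldn3, Cldn4, Cldn7 and Cldn8 belong to the distal nephron and collecting duct, Cldn1 to the parietal epithelium that lines the glomerular capsule, and Cldn6 to embryonic epithelia.

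RNA was sequenced from mouse embryonic kidneys that carried either wild-type Enl or a Wilms tumor-associated mutant allele. Enl, listed as Mllt1 in the gene annotation, encodes a chromatin reader protein that binds acetylated histones. The 32 libraries fell into 11 groups. Whole kidneys at E18.5 came from Six2-TGCtg/+;Enl+/+ (ENL WT, n = 2), Six2-TGCtg/+;EnlT1/+ (ENL-T1, n = 2) and Six2-TGCtg/+;EnlT3/+ (ENL-T3, n = 2) embryos, and from Foxd1GC/+;Enl+/+ (n = 3) and Foxd1GC/+;EnlT1/+ (n = 3) embryos. Cells positive for tdTomato were sorted from Six2-TGCtg/+ kidneys with Enl+/+ or EnlT1/+ at either E14.5 or E18.5 (3 libraries in each of 4 groups) and from Foxd1GC/+ kidneys with Enl+/+ or EnlT1/+ at E18.5 (n = 4 in each group). The T1 allele carries a small in-frame insertion and the T3 allele a small in-frame deletion.

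Every Six2 group, controls included, carried the Six2-TGC transgene, a large genomic construct that expresses a GFP-tagged Cre under Six2 control and is also known to express Six3 aberrantly in nephron progenitors. Cre was therefore active in nephron progenitors and their descendants, which form the nephron from podocyte to connecting tubule, and not in the ureteric tree that forms the collecting duct. Every Foxd1 group, controls included, carried the Foxd1GC knock-in, which removes the function of that Foxd1 allele and drives Cre in the stromal lineage. The mutant Enl alleles were heterozygous and were switched on by Cre at the endogenous locus. Sorted cells also carried the Ai14D tdTomato reporter. Whether a library pooled several embryos was not given in the sources used here, so p-values measure the spread between these libraries.

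Libraries held 106005614 to 157266455 counts in the Six2 whole kidneys, 67137194 to 79343015 in the Foxd1 whole kidneys, 76510702 to 137888792 in the sorted Six2 cells and 2557443 to 3508381 in the sorted Foxd1 cells. Mllt1 could not check the genotype labels, because gene counts add the wild-type and the mutant transcript. It stood at 86.5 and 101 CPM (the gene's counts scaled to the total count of its library) in the Six2 ENL WT kidneys, at 80.7 and 84.2 in ENL-T1 and at 78.3 and 78.4 in ENL-T3. CPM values given hereafter were scaled by edgeR's trimmed mean factors within each table. Because the tables were normalised separately and the whole kidneys and sorted cells were prepared with different kits, levels set across tables are descriptions. A difference is called where edgeR's quasi-likelihood test gave an adjusted p under 0.05 and a fold over 1.5. Where groups are said not to overlap, the share of all genes without overlap was not counted. Such statements describe the libraries and add no test.

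The promoters of 6 members are shown because these members carry the changes described below, or, for Cldn16, the contrast to them. Of the 10 members, 9 had an entry among the RefSeq promoters of GRCm38.p6 and Cldn8 had none. Cldn7, Cldn10 and Cldn19 had 2 annotated starts, which gene counts do not separate. Each sequence is the 250 bases upstream of a start, 5′ to 3′ on the gene's strand, and holds no annotated exon. Capitals mark matches, on either strand, to the 3 motifs searched, which were the GC box core GGGCGG, the TATA box TATAAA and the E-box CAGGTG.
Cldn2, chrX:139800558-139800807, plus strand: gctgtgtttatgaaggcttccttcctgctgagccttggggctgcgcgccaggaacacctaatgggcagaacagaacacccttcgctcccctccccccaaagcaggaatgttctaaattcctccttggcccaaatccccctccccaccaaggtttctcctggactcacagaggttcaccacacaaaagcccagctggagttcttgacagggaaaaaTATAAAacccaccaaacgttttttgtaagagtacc
Cldn10 start 1, chr14:118787621-118787870, plus strand: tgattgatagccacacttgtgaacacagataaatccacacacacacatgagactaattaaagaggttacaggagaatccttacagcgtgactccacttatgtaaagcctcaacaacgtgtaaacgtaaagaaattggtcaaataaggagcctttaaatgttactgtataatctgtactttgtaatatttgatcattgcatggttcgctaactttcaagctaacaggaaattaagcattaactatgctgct
Cldn16, chr16:26462885-26463134, plus strand: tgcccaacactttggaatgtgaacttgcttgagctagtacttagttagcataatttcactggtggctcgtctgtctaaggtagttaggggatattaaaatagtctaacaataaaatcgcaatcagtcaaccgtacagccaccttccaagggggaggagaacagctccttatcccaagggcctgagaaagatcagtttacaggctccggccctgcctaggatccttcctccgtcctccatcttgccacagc
Cldn3, chr5:134985964-134986213, plus strand: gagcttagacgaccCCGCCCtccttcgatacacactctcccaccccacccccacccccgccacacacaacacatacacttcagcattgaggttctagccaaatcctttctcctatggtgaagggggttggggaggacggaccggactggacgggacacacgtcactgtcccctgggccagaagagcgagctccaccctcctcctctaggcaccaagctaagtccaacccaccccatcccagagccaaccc
Cldn4, chr5:134946935-134947184, minus strand: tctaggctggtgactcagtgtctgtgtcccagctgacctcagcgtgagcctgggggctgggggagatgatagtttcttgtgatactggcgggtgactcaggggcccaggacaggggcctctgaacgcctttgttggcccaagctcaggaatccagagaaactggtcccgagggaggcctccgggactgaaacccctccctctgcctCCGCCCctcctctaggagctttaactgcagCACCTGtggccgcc
Cldn7 start 1, chr11:69964529-69964778, plus strand: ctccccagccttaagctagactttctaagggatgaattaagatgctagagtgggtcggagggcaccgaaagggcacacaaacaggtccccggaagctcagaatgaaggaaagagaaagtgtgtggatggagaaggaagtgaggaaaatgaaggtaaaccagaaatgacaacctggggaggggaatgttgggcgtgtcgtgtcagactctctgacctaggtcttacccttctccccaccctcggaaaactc
The TATAAA match of Cldn2 was the only 1 among 12 member starts, and 12.4% of 32851 promoter windows of the same length held that motif. GGGCGG matched at 8 of the 12 member starts, against 32.7% of all windows. CAGGTG matched at 3 (Cldn4, Cldn6 and Cldn7), against 17.2% of all windows. The windows of Cldn7 (start 1), Cldn10 (start 1) and Cldn16 held none of the 3. These matches describe letters, and binding at them was not measured.

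Several members lie next to each other in the genome. Cldn3 (chromosome 5, 134986214 to 134987472, plus strand) and Cldn4 (chromosome 5, 134945119 to 134946934, minus strand) are genes of 1 exon each, 39279 bp apart. Cldn16 (chromosome 16, 26463135 to 26482765, plus strand) and Cldn1 (chromosome 16, 26356642 to 26371841, minus strand) are 91293 bp apart. Cldn2 lies on the X chromosome (139800828 to 139811386, plus strand), Cldn10 on chromosome 14 (118787908 to 118875489, plus strand) and Cldn7 on chromosome 11 (69964779 to 69967885, plus strand). Counting ignored strand, and 3.2% of the exon bases of Cldn3 and 2.1% of those of Cldn19 were shared with a neighbouring gene, so reads there could belong to either.

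In ENL WT whole kidneys, Cldn2, Cldn8 and Cldn6 had the highest levels per length and Cldn3 and Cldn16 the lowest in the Six2 set. Levels per length are CPM per kilobase of exon. In the Six2 ENL WT kidneys the group means were 71.1 for Cldn2, 63.3 for Cldn8 and 60.6 for Cldn6, and the libraries of these 3 overlapped. Below them followed Cldn7 (30.1), Cldn4 (29.5), Cldn10 (24.0), Cldn1 (22.2) and Cldn19 (17.4). Cldn16 (9.57) and Cldn3 (7.86) came last and their libraries overlapped. In the Foxd1 ENL WT kidneys Cldn2 again had the highest mean (78.4) and Cldn16 the lowest (10.1), while Cldn3 stood at 17.9, above Cldn1 (15.6) and Cldn19 (14.8).

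With ENL-T1 in the nephron lineage, whole kidneys at E18.5 had lower levels of 3 claudins placed above in the proximal tubule and thick limb. Levels were higher for 3 claudins placed above in the distal nephron and collecting duct. The comparison with ENL WT called 3 members lower (Cldn2, Cldn10 and Cldn19) and 3 higher (Cldn3, Cldn4 and Cldn7), while 4 were not called (Cldn16, Cldn8, Cldn1 and Cldn6). Over all 23931 genes tested, 2.88% were called higher and 4.88% lower. The members' median log2 fold change was -0.08, beside -0.01 over all genes tested, with calls in both directions. Bulk libraries cannot tell fewer cells of a type from less RNA per cell.

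Cldn2, the proximal tubule pore, stood at 276 and 197 CPM in ENL WT kidneys and at 56.5 and 70.6 in ENL-T1 kidneys. Both ENL WT libraries lay far above both mutants, and the log2 fold change was -1.90 (SE 0.18, adjusted p = 0.000495). Cldn2 is X-linked, and Xist, a transcript of the inactive X chromosome, was near absent (0.104 CPM) in ENL WT replicate 1 and high (530 CPM) in replicate 2. Both ENL-T1 libraries were without Xist, and their mean Cldn2 CPM against the ENL WT library without Xist gave a log2 ratio of -2.12. Both ENL-T3 libraries had Xist, and the ratio to the ENL WT library with Xist was -1.89. Each class thus held 1 ENL WT library and 1 of the mutants only, so the gap of either mutant was seen in a single class.

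Cldn10 and Cldn19 were lower in ENL-T1 as well. Cldn10, the pore of proximal tubule and thick limb, had 64.5 and 60.04 CPM in ENL WT and 27.3 and 32.3 in ENL-T1, a log2 fold change of -1.06 (SE 0.14, adjusted p = 0.00229). Cldn19 had 68.2 and 79.8 CPM in ENL WT and 35.5 and 34.9 in ENL-T1, a log2 fold change of -1.07 (SE 0.08, adjusted p = 0.000199). Neither gene's groups overlapped. Cldn16, which works with Cldn19 in the same segment, did not follow it, with 10.95 and 11.5 CPM in ENL WT and 12.3 and 12.8 in ENL-T1. Its log2 fold change was 0.16 (SE 0.11, adjusted p = 0.404), although its 2 mutant libraries lay just above its 2 ENL WT libraries.

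Of the 4 claudins placed above in the distal nephron and collecting duct, 3 were higher. Cldn3, a sealing claudin, rose from 8.04 and 11.8 CPM in ENL WT to 26.1 and 34.1 in ENL-T1 (log2 fold change 1.60, SE 0.20, adjusted p = 0.00198). Cldn4, which shapes chloride passage in the collecting duct, rose from 47.0 and 60.3 CPM to 111 and 105 (log2 fold change 1.01, SE 0.12, adjusted p = 0.0016). Cldn7, found along the collecting duct and also on basolateral membranes, rose from 54.5 and 62.9 CPM to 117 and 116 (log2 fold change 0.99, SE 0.08, adjusted p = 0.000237). In all 3 the lowest mutant library was above the highest ENL WT library. Cldn8, the partner of Cldn4 in the collecting duct, was not called, with 145 and 153 CPM in ENL WT and 127 and 132 in ENL-T1 (log2 fold change -0.20, SE 0.06, adjusted p = 0.0615).

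Cldn1 and Cldn6 were not called. Cldn1 had 101 and 114 CPM in ENL WT and 88.0 and 90.5 in ENL-T1 (log2 fold change -0.27, SE 0.08, adjusted p = 0.0605). Cldn6 had 94.5 and 114 CPM in ENL WT and 110 and 106 in ENL-T1, with overlapping groups (log2 fold change 0.05, SE 0.09, adjusted p = 0.778).

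**Figure D1:**
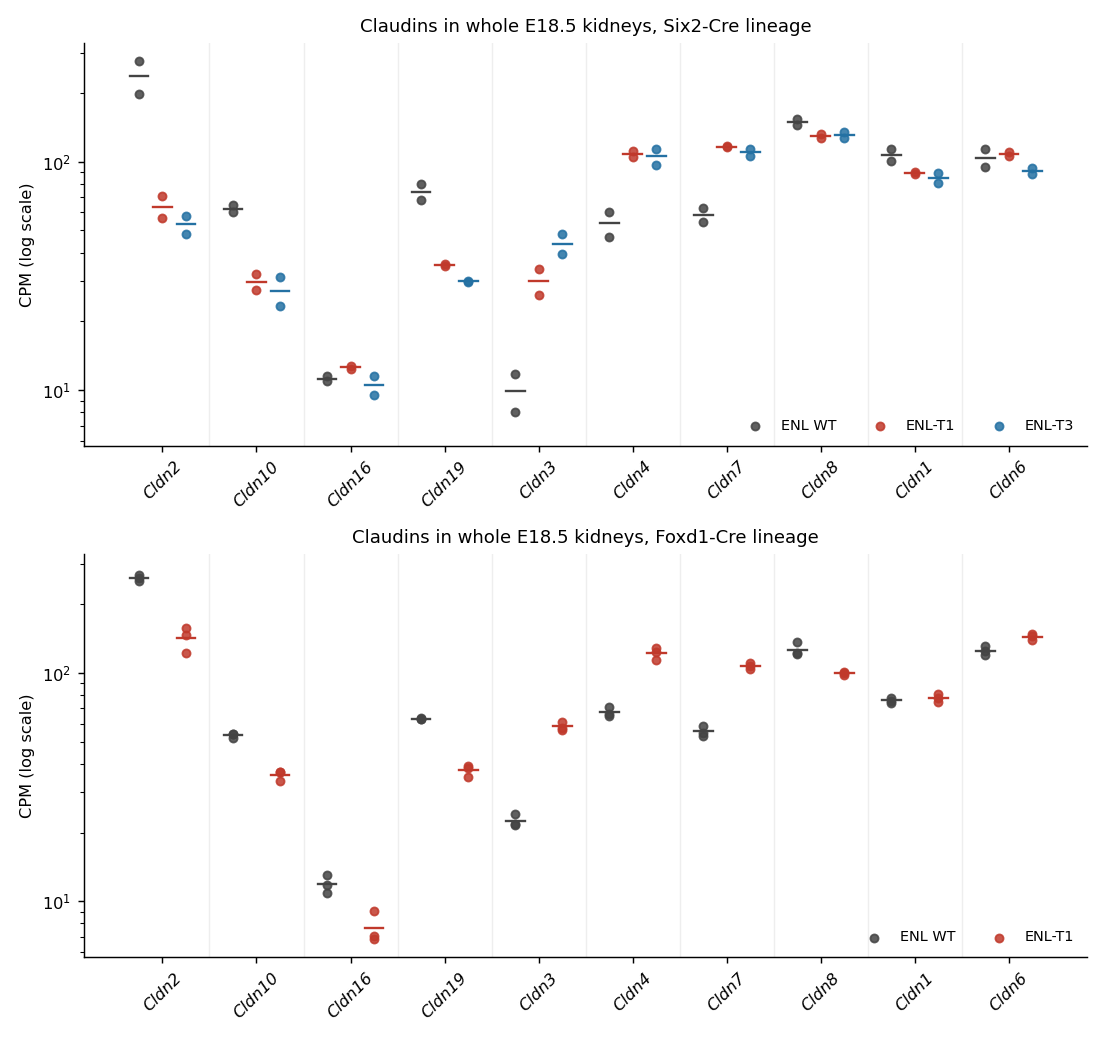
Level of each claudin in whole kidneys at E18.5, in CPM on a log axis, with a point for each library and a bar at each group mean, for the Six2 set (top) and the Foxd1 set (bottom). Cldn2 sits at 197 to 276 CPM in Six2 ENL WT and at 48.3 to 70.6 in the Six2 mutants, while Cldn3, Cldn4 and Cldn7 sit higher in the mutants of both sets.

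ENL-T3 gave calls for the same 6 claudins in the same directions, with 3 higher (Cldn3, Cldn4, Cldn7) and 3 lower (Cldn2, Cldn10, Cldn19). Both mutants were compared with the same 2 ENL WT libraries. Across all genes, 4.34% were called higher and 5.28% lower, and the members' median log2 fold change was -0.19 beside -0.0021 over all genes. Cldn2 had 58.1 and 48.3 CPM in ENL-T3 (log2 fold change -2.15, SE 0.18, adjusted p = 0.000252). Cldn19 had 30.1 and 29.8 CPM (log2 fold change -1.30, SE 0.08, adjusted p = 8.3e-05). Cldn10 had 31.2 and 23.3 CPM (log2 fold change -1.19, SE 0.14, adjusted p = 0.00116). All 3 stayed below both ENL WT libraries.

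Cldn3 reached its highest whole-kidney level of the Six2 set in ENL-T3, at 48.4 and 39.3 CPM (log2 fold change 2.14, SE 0.21, adjusted p = 0.000478). Cldn4 had 114 and 97.1 CPM (log2 fold change 0.97, SE 0.12, adjusted p = 0.00158), and Cldn7 had 114 and 106 (log2 fold change 0.90, SE 0.08, adjusted p = 0.000299). These libraries too lay above both ENL WT libraries. Cldn1 passed the p threshold but not the fold minimum, with 89.0 and 80.6 CPM (log2 fold change -0.34, SE 0.08, adjusted p = 0.0213). Cldn16 (11.6 and 9.56 CPM), Cldn8 (135 and 127 CPM) and Cldn6 (94.0 and 87.9 CPM) were not called, with adjusted p-values of 0.634, 0.0728 and 0.186.

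Set directly against each other, ENL-T3 and ENL-T1 differed in 0 of the 10 claudins by edgeR's quasi-likelihood test at the adjusted threshold. DESeq2 and edgeR's exact test also called 0. At an unadjusted p under 0.05 there were 4, namely Cldn3 (log2 difference 0.54, SE 0.20, adjusted p = 0.643), Cldn6 (-0.25), Cldn16 (-0.25) and Cldn19 (-0.23). Over all genes, 0.00418% were called higher in ENL-T3 and 0% lower, and the members' median was -0.11 beside 0.0041. The exact test gave adjusted p-values of 0.0343 for Cldn3 and 0.0204 for Cldn6, both under the fold minimum. Without the low-count filter the quasi-likelihood test gave 6.74e-06 for Cldn3, 0.0337 for Cldn2 and 0.0374 for Cldn6, again under the fold minimum. Whether the difference of Cldn3 could be told from 0 with 2 libraries a group thus depended on the test and the filter.

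Per kilobase of exon, the summed level of the 10 claudins in the Six2 whole kidneys stayed in a narrow range while its makeup differed. It was 330.7 to 340.6 CPM per kilobase in ENL WT, 324.1 to 333.9 in ENL-T1 and 299.3 to 336.2 in ENL-T3, so the groups overlapped. Without the scaling to length the sum was lower in both mutants. It was 864.4 to 869.3 CPM in ENL WT, 710.4 to 734.7 in ENL-T1 and 648.9 to 724.8 in ENL-T3. Cldn2 made up 17.4% to 25.1% of the sum per kilobase in ENL WT, 5.24% to 6.36% in ENL-T1 and 4.86% to 5.20% in ENL-T3. Cldn3 made up 1.93% to 2.74% in ENL WT, 6.40% to 8.10% in ENL-T1 and 10.4% to 11.4% in ENL-T3. The shares of Cldn4 and Cldn7 were 7.82% to 9.75% and 8.46% to 9.48% in ENL WT, and 17.3% to 18.9% and 17.4% to 18.47% over the 4 mutant libraries. For none of these 4 genes did the shares in ENL WT overlap those in a mutant.

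**Figure D2:**
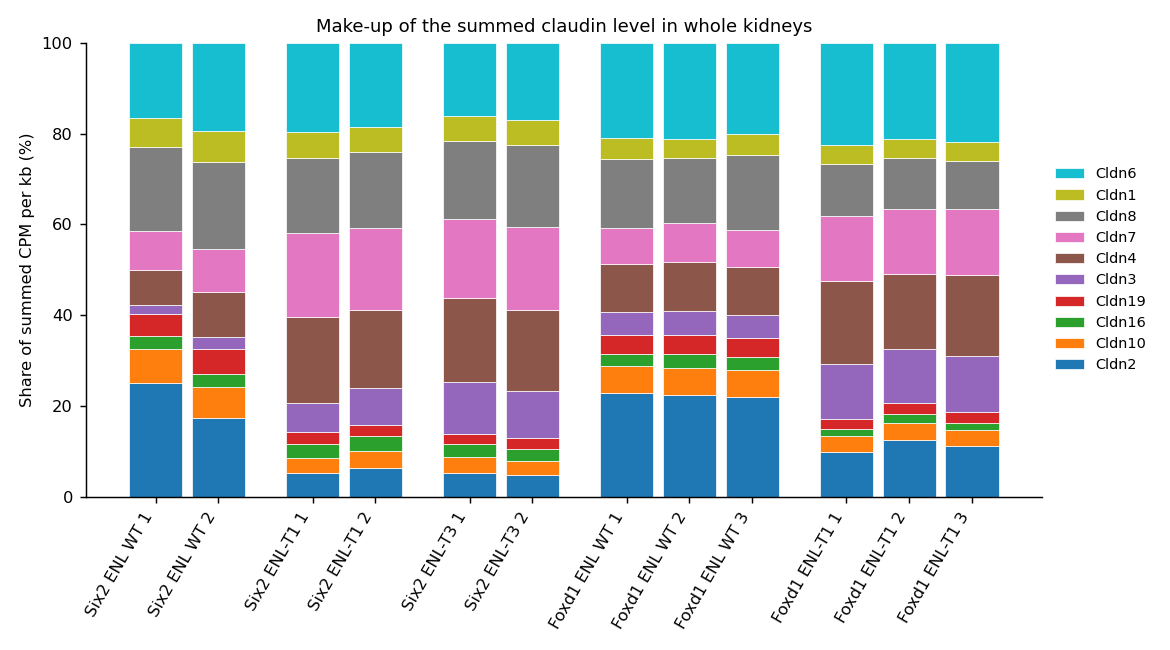
Share of each claudin in the summed CPM per kilobase of the 10 claudins, in percent, with a stacked bar for each whole-kidney library at E18.5. The share of Cldn2 is 17.4% to 25.1% in Six2 ENL WT and 4.86% to 6.36% in the Six2 mutants, and those of Cldn3, Cldn4 and Cldn7 are larger in every mutant library than in the ENL WT libraries of the same set.

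Ratios within a library, which do not depend on its depth, combine the changes given above and are no further test of them. The log2 ratio of Cldn2 to Cldn4, per kilobase, was 0.84 to 1.68 in Six2 ENL WT kidneys, -1.85 to -1.45 in ENL-T1 and -1.88 to -1.84 in ENL-T3. Cldn2 was thus above Cldn4 in every ENL WT library and below it in every mutant library. The log2 ratio of Cldn16 to Cldn19 was -0.93 to -0.78 in ENL WT, 0.34 to 0.41 in ENL-T1 and 0.22 to 0.48 in ENL-T3, so the partners changed places in the order per kilobase. The log2 ratio of Cldn4 to Cldn8 was -1.25 to -0.97 in ENL WT, 0.05 to 0.18 in ENL-T1 and -0.016 to 0.13 in ENL-T3. Per kilobase, Cldn4 thus passed Cldn8 in every mutant library but 1 of ENL-T3. Both changes of order rest on the exon lengths used. In CPM, Cldn19 stayed above Cldn16 and Cldn8 above Cldn4 in every mutant library.

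**Figure D3:**
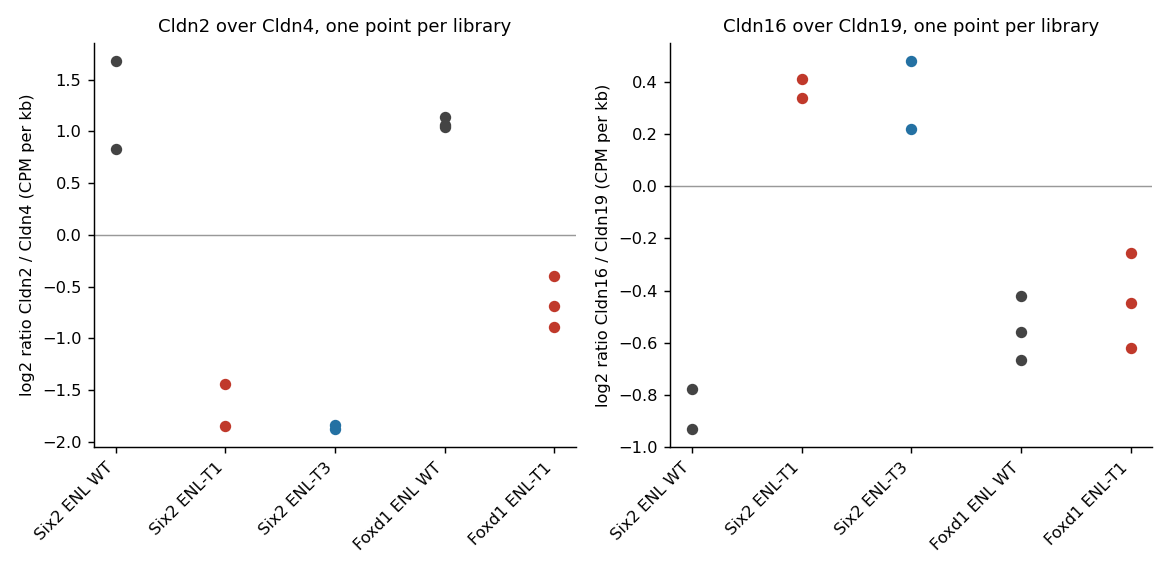
Log2 ratios of Cldn2 to Cldn4 and of Cldn16 to Cldn19 (CPM per kilobase) in each whole-kidney library at E18.5, with a point for each library. The Cldn2 to Cldn4 ratio is above 0 in every ENL WT library and below 0 in every mutant library of both sets, whereas the Cldn16 to Cldn19 ratio separates the genotypes in the Six2 set and overlaps between them in the Foxd1 set.

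Markers of the proximal tubule and thick limb were lower beside Cldn2, Cldn10 and Cldn19, and no list of distal markers rose beside Cldn3, Cldn4 and Cldn7. All 10 proximal tubule markers (among them Lrp2, Slc34a1 and Aqp1) were called lower in Six2 ENL-T1 kidneys (median log2 fold change -2.67), and their summed level was 2653 to 3027 CPM in ENL WT and 398.6 to 508.3 in ENL-T1. Of 10 thick ascending limb markers (among them Slc12a1 and Umod) 6 were called lower (median -0.67), and of 9 ureteric tree and collecting duct markers tested 3 were lower and 0 higher (median -0.34). The summed level of the last list was 1103 to 1303 CPM in ENL WT and 858.8 to 903.6 in ENL-T1, below ENL WT while Cldn3, Cldn4 and Cldn7 were above it. Of 5 distal convoluted tubule markers tested 3 were lower and 0 higher in ENL-T1 (median -0.66, summed level 349.1 to 379.2 CPM in ENL WT and 214.1 to 220 in ENL-T1), and the counts were the same in ENL-T3 (median -0.83). Of 6 general epithelial markers, such as Cdh1 and Epcam, 0 were called by edgeR in either mutant (medians 0.13 and 0.06). In ENL-T3 the counts were 10 of 10 proximal tubule markers (median -2.80), 6 of 10 thick limb markers (median -0.66) and 5 of 9 ureteric tree and collecting duct markers (median -0.65) lower. Podocyte markers were lower for 7 of 7 in either mutant, nephron progenitor markers for 6 of 7, and macrophage markers were higher for 4 of 5 in ENL-T1 and 3 of 5 in ENL-T3. Of 7 renal vesicle markers, 2 were higher and 0 lower in ENL-T1 (median 0.31), and 3 higher and 1 lower in ENL-T3 (median 0.17). Their summed level was 631.4 to 817.8 CPM in ENL WT, 912.4 to 934.5 in ENL-T1 and 807.9 to 864.4 in ENL-T3. The part of cell type makeup in the claudin differences was not tested.

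ENL-T1 in the stromal lineage, which does not form the tubule epithelium, also moved tubule claudins in whole kidneys. Of the 10 members, 3 were called higher (Cldn3, Cldn4, Cldn7) and 3 lower (Cldn2, Cldn19, Cldn16) against Foxd1GC/+;Enl+/+ kidneys. Over 20145 genes, 2.65% were called higher and 7.53% lower, and the members' median log2 fold change was -0.16 beside -0.0034 over all genes.

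Cldn3 had 21.7, 24.1 and 21.7 CPM in ENL WT and 56.3, 57.5 and 61.0 in ENL-T1 (log2 fold change 1.37, SE 0.06, adjusted p = 1.07e-08). Cldn7 had 53.0, 58.7 and 54.8 CPM in ENL WT and 104, 107 and 111 in ENL-T1 (log2 fold change 0.95, SE 0.06, adjusted p = 7.9e-08). Cldn4 had 64.7, 71.1 and 66.2 CPM in ENL WT and 124, 113 and 129 in ENL-T1 (log2 fold change 0.86, SE 0.06, adjusted p = 3.82e-07). Every mutant library of these distal claudins was above every ENL WT library.

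Cldn2 had 261, 269 and 253 CPM in ENL WT and 122, 158 and 147 in ENL-T1 (log2 fold change -0.87, SE 0.08, adjusted p = 2.4e-06), and all 6 libraries had Xist. Cldn19 had 62.7, 63.5 and 62.9 CPM in ENL WT and 34.9, 39.2 and 38.2 in ENL-T1 (log2 fold change -0.75, SE 0.06, adjusted p = 7.03e-07). Here its partner Cldn16 was lower too, with 10.9, 13.0 and 11.7 CPM in ENL WT and 7.03, 9.03 and 6.84 in ENL-T1 (log2 fold change -0.64, SE 0.12, adjusted p = 0.00115). The call of Cldn16 was lost, by falling under the fold minimum, without ENL WT replicate 2, ENL-T1 replicate 1 or ENL-T1 replicate 3, with log2 fold changes of -0.56 to -0.58. None of these groups overlapped.

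Of the remaining claudins, 3 passed the p threshold under the fold minimum. Cldn10 had 51.8, 54.0 and 54.1 CPM in ENL WT and 33.5, 36.9 and 36.9 in ENL-T1 (log2 fold change -0.58, SE 0.06, adjusted p = 7.92e-06), and was called without ENL WT replicate 1, ENL-T1 replicate 2 or ENL-T1 replicate 3 (log2 fold changes of -0.59 to -0.60). Cldn8 had 122, 121 and 136 CPM in ENL WT and 101, 99.8 and 97.7 in ENL-T1 (log2 fold change -0.35, SE 0.06, adjusted p = 0.000384). Cldn6 had 124, 131 and 120 CPM in ENL WT and 145, 139 and 148 in ENL-T1 (log2 fold change 0.20, SE 0.05, adjusted p = 0.00912). Cldn1, with 75.5, 74.0 and 77.8 CPM in ENL WT and 74.5, 77.5 and 80.9 in ENL-T1, had overlapping groups (log2 fold change 0.04, adjusted p = 0.64).

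The summed claudin level was 342.1 to 358.9 CPM per kilobase in Foxd1 ENL WT kidneys and 372.3 to 393.4 in ENL-T1. Without the scaling to length the groups overlapped, at 847.3 to 879.5 CPM and 801.6 to 855.5 CPM. Cldn2 made up 21.9% to 22.9% of the sum per kilobase in ENL WT and 9.88% to 12.5% in ENL-T1, while Cldn3 made up 4.96% to 5.34% and 11.99% to 12.3%. The log2 ratio of Cldn2 to Cldn4 went from a range of 1.05 to 1.14 in ENL WT to one of -0.89 to -0.40 in ENL-T1. The ratio of Cldn16 to Cldn19 overlapped between the genotypes, at -0.67 to -0.42 in ENL WT and -0.62 to -0.26 in ENL-T1. Proximal tubule markers were lower for 9 of 10 (median log2 fold change -0.95, summed level 2855 to 3000 CPM in ENL WT and 1222 to 1631 in ENL-T1). Thick limb markers were lower for 6 of 10 (median -0.79), and of 9 ureteric tree and collecting duct markers 3 were lower and 1 higher (median -0.44). Of 5 distal convoluted tubule markers 2 were lower (median -0.45), while nephron progenitor markers were higher for 5 of 7 (median 0.63). Of 7 renal vesicle markers 0 were called and all 7 had positive fold changes (median 0.22). Their summed level was 710.7 to 742 CPM in ENL WT and 854.8 to 856.9 in ENL-T1. The part of all these cell types in the claudin differences was not tested.

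The effect of ENL-T1 differed between the Cre lineages for 3 claudins. In a fit of the 10 libraries of both sets, the log2 fold change of the Foxd1 set minus that of the Six2 set was 1.00 for Cldn2 (SE 0.18, adjusted p = 0.00397), 0.47 for Cldn10 (SE 0.11, adjusted p = 0.0164) and -0.81 for Cldn16 (SE 0.18, adjusted p = 0.0119). The log2 fold changes of Cldn2 and Cldn10 were thus less negative in the Foxd1 set, and that of Cldn16 was negative there while it was 0.16 and not called in the Six2 set. Of 22826 genes, 4.82% had a called positive and 3.55% a called negative difference, at an adjusted p under 0.05 with no fold minimum, and the members' median difference was 0.04 beside 0.01. Cldn3, Cldn4, Cldn7 and Cldn8 gave differences of -0.24, -0.17, -0.06 and -0.16, with adjusted p-values of 0.338 to 0.809. The call of Cldn10 was lost without Six2 ENL-T1 replicate 1 (log2 difference 0.35, adjusted p = 0.0984) and that of Cldn16 without Six2 ENL-T1 replicate 2 (adjusted p = 0.0578). Without Six2 ENL WT replicate 1, Cldn1, Cldn6 and Cldn19 were called as well, with 5 positive differences in all, and without Six2 ENL WT replicate 2 so was Cldn4 (-0.39, adjusted p = 0.0408). The sets were sequenced with different read lengths, so read length and Cre lineage cannot be told apart in this difference.

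Sorted Six2 lineage cells held less of the ureteric tree and collecting duct. Markers of these summed to 134 to 179.9 CPM in ENL WT at E18.5, against 1103 to 1303 in the Six2 whole kidneys. Cldn8 stood at 6.44 to 10.8 CPM in these sorted cells, against 145 to 153 in the whole kidneys. Cldn3 (3.75 to 4.98 against 8.04 to 11.8) and Cldn7 (28.9 to 42.5 against 54.5 to 62.9) were lower there too. Cldn4 was not, at 80.5 to 114 CPM against 47.0 to 60.3, so its level did not go with the collecting duct markers. In ENL WT cells at E14.5, Cldn6 stood out with 22.8 CPM per kilobase and 66.6% to 69.7% of the summed claudin level. Cldn7 followed with 5.51, Cldn1 with 2.01 and Cldn3 with 1.41 CPM per kilobase, while the other 6 stood below these. The lowest was Cldn16, at 0.031, 0.078 and 0.031 CPM.

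All 10 claudins rose from E14.5 to E18.5 in ENL WT cells. Here a call needed an adjusted p under 0.01 and a fold over 2, and 24.8% of 25222 genes were called higher and 20.6% lower. The members' median log2 fold change was 2.94 beside 0.02 over all genes, and the median over all genes moved by 0.13 with relative log expression factors and by -0.14 with library size alone. Cldn4 rose most, from 0.312, 0.628 and 1.16 CPM to 82.9, 114 and 80.5 (log2 fold change 7.04, SE 0.57). Cldn2 went from 0.289, 0.278 and 1.51 CPM to 51.7, 61.6 and 43.7 (log2 fold change 6.24, SE 0.63), and Cldn19 from 0.257, 0.121 and 0.222 to 12.3, 14.2 and 12.7 (log2 fold change 6.03, SE 0.47). In each of the 10 the highest E14.5 library lay below the lowest E18.5 library, but how many of all genes did so was not counted. The stages were dissociated with different enzymes, trypsin at E14.5 and collagenase at E18.5, and a part of that in the differences was not tested.

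The rest rose less. The log2 fold changes were 4.87 (SE 0.69) for Cldn16, 3.01 (SE 0.22) for Cldn10, 2.88 (SE 0.66) for Cldn8, 2.16 (SE 0.17) for Cldn1, 1.68 (SE 0.22) for Cldn7, 1.47 (SE 0.16) for Cldn6 and 1.35 (SE 0.36) for Cldn3. The call of Cldn3 was lost without E14.5 ENL WT replicate 1, E18.5 ENL WT replicate 1 or E18.5 ENL WT replicate 2 (adjusted p up to 0.0117). By E18.5, Cldn6 (62.9 CPM per kilobase) and Cldn4 (50.9) headed the order, followed by Cldn7 (17.7) and Cldn2 (15.7). Cldn6 then made up 34.5% to 40.1% of the summed claudin level and Cldn4 27.3% to 31.0%. The sum itself was 27.5 to 41.1 CPM per kilobase at E14.5 and 148.2 to 202.9 at E18.5.

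**Figure D4:**
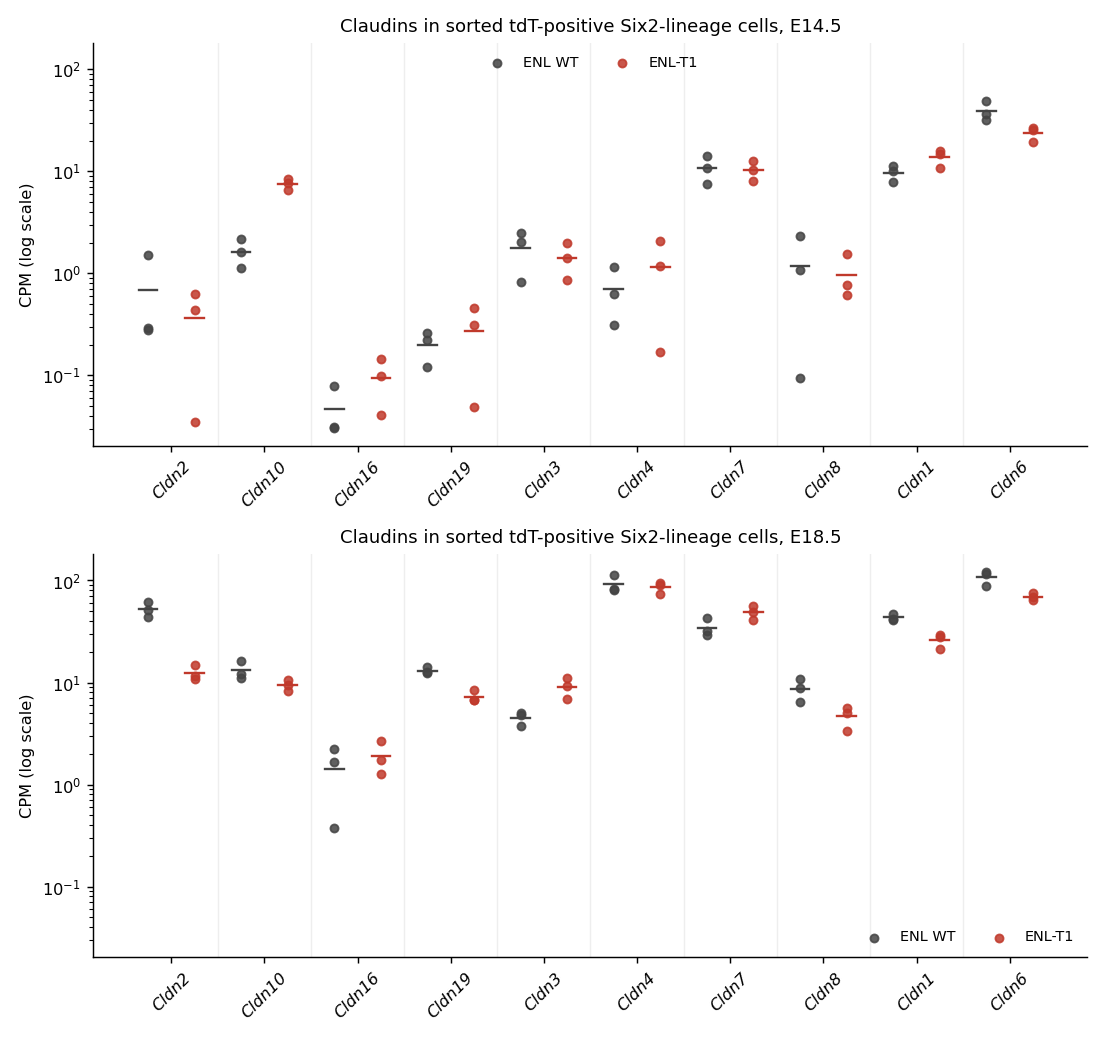
Level of each claudin in sorted Six2 lineage cells at E14.5 and E18.5, in CPM on a log axis, with a point for each library and a bar at each group mean. Cldn10 is higher in ENL-T1 at E14.5 (6.52 to 8.37 CPM against 1.12 to 2.16) and Cldn2 lower at E18.5 (10.9 to 14.96 against 43.7 to 61.6).

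At E14.5, before most claudins had risen, 1 claudin was called higher and 1 lower in ENL-T1. Over 22387 genes, 4.11% were called higher and 2.28% lower, and the members' median log2 fold change was 0.21 beside 0.0035. Cldn10 had 2.16, 1.62 and 1.12 CPM in ENL WT and 6.52, 7.63 and 8.37 in ENL-T1, a log2 fold change of 2.21 (SE 0.23, adjusted p = 0.000698). Its 3 mutant libraries were all above its 3 ENL WT libraries, and the call held with each library left out. Cldn6 had 36.7, 31.6 and 49.3 CPM in ENL WT and 19.4, 26.4 and 25.2 in ENL-T1 (log2 fold change -0.71, SE 0.17, adjusted p = 0.0287), also without overlap. The call of Cldn6 was lost without ENL WT replicate 1 or 3 or any of the 3 ENL-T1 replicates, with adjusted p-values up to 0.0904 and, without ENL WT replicate 3, a log2 fold change of -0.51 under the fold minimum.

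The other 8 claudins were not called at E14.5 and their groups overlapped. Cldn1 had 7.84, 10.03 and 11.3 CPM in ENL WT and 15.9, 10.8 and 14.7 in ENL-T1 (log2 fold change 0.52, SE 0.18, adjusted p = 0.0932), and was called without ENL-T1 replicate 2 (log2 fold change 0.67, adjusted p = 0.0415). Cldn7 had 14.0, 7.43 and 10.8 CPM in ENL WT and 8.08, 10.3 and 12.6 in ENL-T1. The remaining 6 (Cldn2, Cldn3, Cldn4, Cldn8, Cldn16 and Cldn19) were at 0.031 to 2.51 CPM in every library of both genotypes. Stroma markers also moved at this stage, with 6 of 9 called higher and 1 lower (median log2 fold change 2.08). Nephron progenitor markers were called lower for 6 of 7 (median -0.99, summed level 1797 to 2099 CPM in ENL WT and 925.9 to 1125 in ENL-T1). The part of either in the calls of Cldn10 and Cldn6 was not tested.

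At E18.5, ENL-T1 cells had 5 claudins called lower (Cldn2, Cldn19, Cldn1, Cldn6 and Cldn8) and 1 higher (Cldn3). Over 22685 genes, 6.14% were called higher and 5.54% lower, and the members' median log2 fold change was -0.55 beside 0.02. Cldn2 had 51.7, 61.6 and 43.7 CPM in ENL WT and 10.9, 11.5 and 14.96 in ENL-T1 (log2 fold change -2.07, SE 0.14, adjusted p = 2.45e-07). The log2 ratio of the means was -2.25 among libraries without Xist and -1.99 among those with it. All 10 proximal tubule markers were lower beside it (median -2.29, summed level 1424 to 1924 CPM in ENL WT and 457.4 to 485 in ENL-T1).

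Cldn19 had 12.3, 14.2 and 12.7 CPM in ENL WT and 8.35, 6.68 and 6.69 in ENL-T1 (log2 fold change -0.84, SE 0.12, adjusted p = 0.000267). Cldn16 was again not called and overlapped, with 0.379, 2.22 and 1.66 CPM in ENL WT and 2.69, 1.28 and 1.73 in ENL-T1 (log2 fold change 0.43, SE 0.46, adjusted p = 0.594). Of 10 thick limb markers 5 were called lower (median -0.72). Cldn10 passed the p threshold under the fold minimum, with 10.97, 16.3 and 12.1 CPM in ENL WT and 9.50, 8.26 and 10.5 in ENL-T1 (log2 fold change -0.47, SE 0.15, adjusted p = 0.0412), and was called without ENL WT replicate 1 (-0.59).

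Among the distal claudins, Cldn3 had 4.85, 4.98 and 3.75 CPM in ENL WT and 10.99, 6.82 and 9.20 in ENL-T1 (log2 fold change 1.00, SE 0.18, adjusted p = 0.00123). Cldn7 had 31.8, 42.5 and 28.9 CPM in ENL WT and 56.3, 40.6 and 49.3 in ENL-T1, and missed the fold minimum (log2 fold change 0.51, SE 0.14, adjusted p = 0.0196). It was called without ENL WT replicate 2 (0.69) or ENL-T1 replicate 2 (0.62). Cldn4, higher in mutant whole kidneys, overlapped here, with 82.9, 114 and 80.5 CPM in ENL WT and 90.0, 73.3 and 94.0 in ENL-T1 (log2 fold change -0.10, adjusted p = 0.635). Cldn8 had 6.44, 10.8 and 8.75 CPM in ENL WT and 5.61, 3.38 and 5.08 in ENL-T1 (log2 fold change -0.88, SE 0.21, adjusted p = 0.00839), and lost its call without ENL WT replicate 2 (adjusted p = 0.0523). Ureteric tree and collecting duct markers, which the sort should leave out, summed to 134 to 179.9 CPM in ENL WT and 94.8 to 121.1 in ENL-T1, with 5 of 9 called lower (median -0.72).

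Cldn1 had 42.2, 47.2 and 41.1 CPM in ENL WT and 29.0, 21.3 and 27.8 in ENL-T1 (log2 fold change -0.73, SE 0.11, adjusted p = 0.000287). Cldn6 had 115, 120 and 88.8 CPM in ENL WT and 75.6, 63.9 and 68.9 in ENL-T1 (log2 fold change -0.63, SE 0.10, adjusted p = 0.000594). It fell under the fold minimum without ENL WT replicate 1, ENL WT replicate 2 or ENL-T1 replicate 2 (log2 fold changes of -0.55 to -0.58). In a fit of all 12 sorted Six2 libraries the calls of Cldn3, Cldn8 and Cldn19 were lost, with adjusted p-values of 0.0713, 0.4 and 0.135. Red cell markers summed to 103.9 to 210.3 CPM in ENL WT and 1550 to 2274 in ENL-T1 at this stage, and stroma markers were called higher for 6 of 9 and lower for 2 (median log2 fold change 1.00). Podocyte markers were called lower for 7 of 7 (summed level 2957 to 3459 CPM in ENL WT and 216.6 to 269.2 in ENL-T1) and nephron progenitor markers for 6 of 7 (1077 to 1390 and 402.3 to 512.2 CPM). Renal vesicle markers were higher for 4 of 7 and lower for 1, and macrophage markers higher for 3 of 5. The part of all these cell types in the claudin differences was not tested.

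In ENL-T1 cells, 8 of the 10 claudins rose from E14.5 to E18.5 by the thresholds used for ENL WT, against 24.4% of all genes called higher and 19.8% lower. The members' median log2 fold change was 2.47 beside 0.07. Cldn4 rose by 6.23, Cldn2 by 5.11, Cldn19 by 4.73 and Cldn16 by 4.30 on the log2 scale, and Cldn3, Cldn8, Cldn7 and Cldn6 by 2.67, 2.27, 2.24 and 1.55. Cldn1, at 0.92 (adjusted p = 0.00013), stayed under the 2-fold minimum, and Cldn10 was the only member whose stages overlapped (log2 fold change 0.33, SE 0.21, adjusted p = 0.162). The call of Cldn8 was lost without E14.5 ENL-T1 replicate 1 or 2 or E18.5 ENL-T1 replicate 1 or 3 (adjusted p = 0.0181 to 0.0294), and with relative log expression factors or DESeq2 Cldn1 passed the minimum (1.01), as it did without E14.5 ENL-T1 replicate 1 (1.02) or E18.5 ENL-T1 replicate 2 (1.03).

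The T1 effect itself differed between the stages for 2 claudins, both negative as E18.5 minus E14.5. It was -2.68 for Cldn10 (SE 0.30, adjusted p = 8.89e-05) and -1.25 for Cldn1 (SE 0.23, adjusted p = 0.00373), and both calls held with each library left out. In either gene the E14.5 fold change was positive and the E18.5 fold change negative. Of all genes, 3.94% (995) had a called positive difference and 4.22% (1064) a called negative difference, and the split moved to 1268 and 882 with library size alone and to 764 and 1184 with relative log expression factors. The members' median difference was -0.71 beside 0.02. Cldn3 was called as well without E14.5 ENL WT replicate 1 (1.67, adjusted p = 0.021), Cldn2 without E14.5 ENL WT replicate 3 (-2.41, adjusted p = 0.0444) and Cldn19 without E14.5 ENL-T1 replicate 1 (-1.81, adjusted p = 0.00673).

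Sorted cells of the Foxd1 stromal lineage held few reads of the 10 claudins. In ENL WT their stroma markers summed to 7933 to 10740 CPM. Podocyte markers summed to 513.7 to 887, endothelium markers to 238.1 to 442.5 and general epithelial markers to 108.6 to 152.7 CPM. The summed claudin level was 38.2 to 58.2 CPM per kilobase in ENL WT and 31.5 to 47.1 in ENL-T1. Cldn3 (4 to 16 counts per library) and Cldn16 (1 to 20 counts) did not pass the filter. Of the 8 members tested, 2 were called lower in ENL-T1 and 0 higher, against 2.18% and 3.63% of 12717 genes, and the members' median log2 fold change was -0.38 beside -0.0040. Cldn8 had 37, 19, 20 and 10 counts in ENL WT and 6, 11, 8 and 3 in ENL-T1 (log2 fold change -1.51, SE 0.38, adjusted p = 0.0135), and its groups overlapped. Cldn10 had 79, 42, 24 and 22 counts in ENL WT and 16, 20, 15 and 23 in ENL-T1 (log2 fold change -1.06, SE 0.29, adjusted p = 0.022), and scaled to depth its 4 mutant libraries (5.45 to 7.50 CPM) lay below its 4 ENL WT libraries (8.02 to 22.1 CPM).

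Both calls in the sorted Foxd1 cells rested on single libraries. That of Cldn8 was lost without ENL WT replicate 1 (adjusted p = 0.0549) or ENL-T1 replicate 4 (0.0619). That of Cldn10 was lost without ENL WT replicate 1 (log2 fold change -0.66, adjusted p = 0.0936), ENL-T1 replicate 2 (0.0602) or ENL-T1 replicate 3 (0.0692). Tubule markers were present in these cells and lower in ENL-T1. The proximal tubule list summed to 111.2 to 284.7 CPM in ENL WT and 62.1 to 94.9 in ENL-T1, the thick limb list to 38.7 to 98.7 and 17.8 to 44.3, and the ureteric tree and collecting duct list to 85.7 to 125.3 and 50.0 to 61.8. Their part in the 2 claudin calls was not tested. The other 6 tested members, with Cldn2 at 17 to 74 counts in ENL WT and 16 to 39 in ENL-T1 and Cldn1 at 43.2 to 66.0 CPM and 42.9 to 48.8 CPM, were not called.

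**Figure D5:**
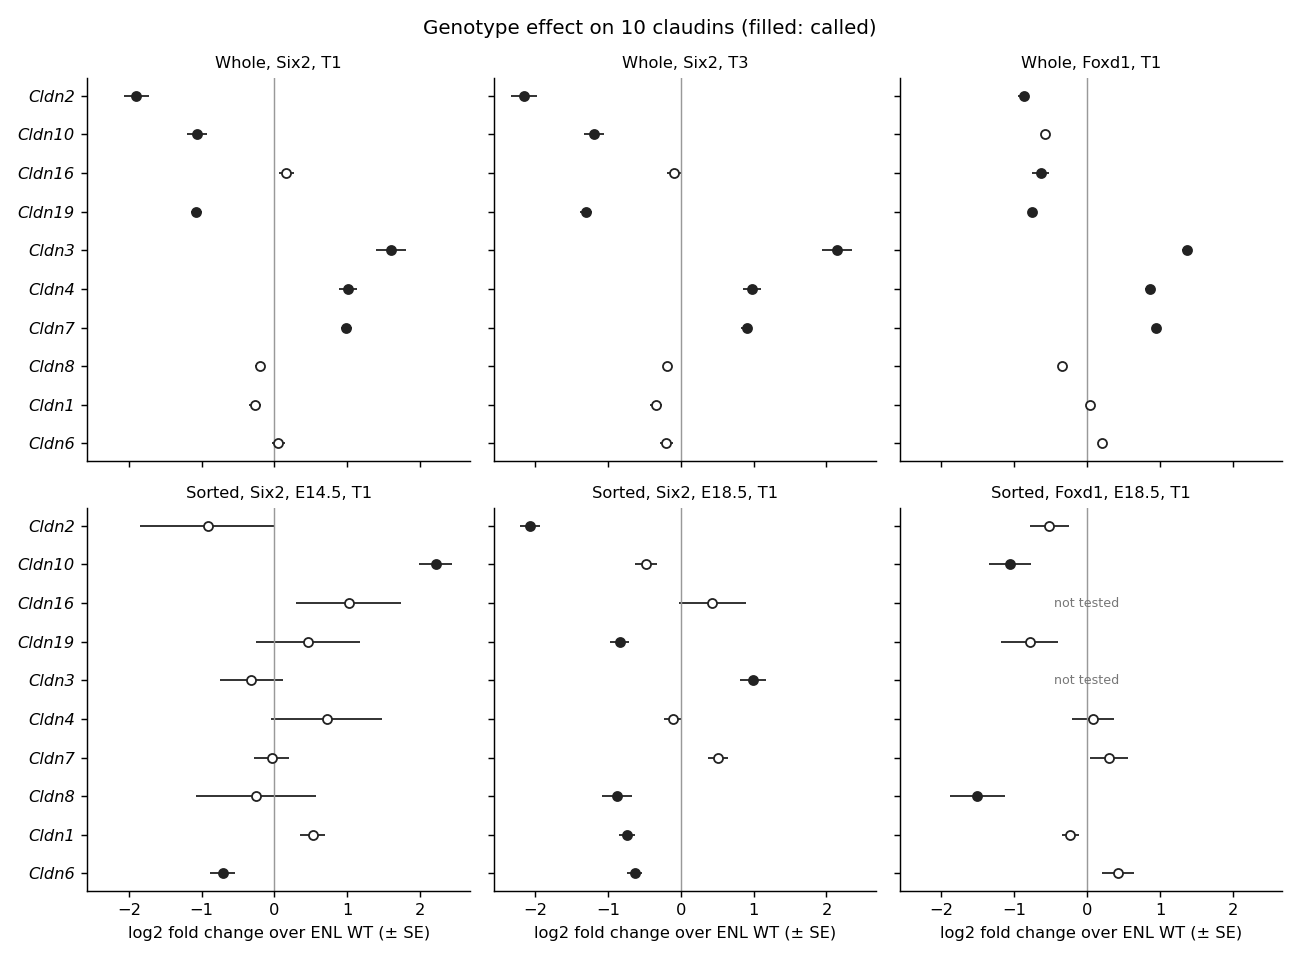
Log2 fold change of each claudin over ENL WT in 6 comparisons, 3 of whole kidneys (top) and 3 of sorted cells (bottom), with bars of 1 SE and filled points for called differences. In the whole kidneys of both sets Cldn3, Cldn4 and Cldn7 lie right of 0 and Cldn2, Cldn10 and Cldn19 left of it, while Cldn3 and Cldn16 were not tested in sorted Foxd1 cells.

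Of 23 genes for proteins that join claudins in the tight junction, all tested in the whole kidneys, 1 was higher and 1 lower in Six2 ENL-T1 kidneys (2.88% and 4.88% over all genes), namely Ocln (log2 fold change 0.65), which encodes the membrane protein occludin, and Ildr2 (-0.82), of the angulin family of tricellular junction proteins. In ENL-T3 they were Tjp3 (0.59), a scaffold protein, and Ildr2 (-0.84), and in the Foxd1 whole kidneys 0 were called by edgeR. In sorted Six2 cells, Jam2 (0.76) was higher and Marveld2 (-0.65), which encodes tricellulin, lower at E14.5, and at E18.5 Ildr2 (-1.38), Cgnl1 (-0.72) and Tjp1 (-0.63) were lower. From E14.5 to E18.5, 15 of the 23 rose and 1 fell (Jam3, log2 fold change -1.05) in ENL WT cells, against the 24.8% and 20.6% of all genes given above. The members of this list that rose most were Ildr2 (4.37), Ildr1 (3.20), Ocln (2.69), Cgn (2.54) and Cgnl1 (2.26), and in ENL-T1 cells 15 rose and 0 fell.

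The rest of the claudin family was not low as a sum, although many of its genes did not pass the filter. In Six2 ENL WT whole kidneys the further genes listed summed to 331.8 to 333.1 CPM, against 864.4 to 869.3 for the 10 members. In sorted ENL WT cells they exceeded the members. The sums were 274.3 to 292 CPM against 54.87 to 80.25 in Six2 cells at E14.5, and 333.5 to 394 against 114.8 to 148.5 in Foxd1 cells. Of 27 further claudin and claudin-domain genes listed, 25 were in the Six2 tables and 14 passed the filter in the Six2 whole kidneys. In ENL-T1, Cldn23 (log2 fold change 2.15) and Cldn11 (0.60) were higher, and in ENL-T3 Cldn23 (2.36) and Cldn11 (0.79) were higher while Cldn12 (-0.65) and Cldn15 (-0.59) were lower. Cldn23 was higher in the Foxd1 whole kidneys as well (1.21), with Cldn9 (0.63), a neighbour of Cldn6 at a distance of 137 bp, and Cldn15 was lower (-0.90). In sorted Six2 cells Cldn11 was higher at E14.5 (0.71) and E18.5 (0.95), and Cldn5 was lower at both (-1.002 and -0.81). Cldn9 was lower at E18.5 (-0.72). From E14.5 to E18.5 in ENL WT cells, Cldn24 (3.75), Cldn15 (3.38), Cldn11 (1.81) and Cldn5 (1.17) rose, while Cldn9 (-2.34) and Cldn34c3 (-1.36) fell, the opposite of Cldn6, which lies beside Cldn9.

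Of 22 transcription and splicing regulators of epithelial genes, the Six2 ENL-T1 kidneys had 3 higher and 3 lower, against 2.88% and 4.88% of all genes. Klf5 (log2 fold change 0.95), Elf3 (0.72) and Snai2 (0.71) were higher, and those lower included Hnf4a (-1.46), a proximal tubule factor, and Elf5 (-0.73). In ENL-T3 there were 4 higher and 4 lower (4.34% and 5.28% of all genes), with Klf5 (1.18), Snai2 (0.86), Elf3 (0.71) and Zeb2 (0.59) higher, and those lower including Hnf4a (-1.72) and Elf5 (-0.93). In the Foxd1 whole kidneys (2.65% and 7.53% of all genes) Elf3 (0.77) and Klf5 (0.59) were higher and Elf5 (-1.12) lower. In sorted Six2 cells at E14.5 (4.11% and 2.28%), Snai2 (1.77), Twist1 (1.52) and Klf5 (0.95) were higher, and those lower included Grhl3 (-1.46) and Esrp2 (-1.14). At E18.5 (6.14% and 5.54%) Snai2 (0.76) and Pax2 (0.60) were higher, and those lower included Hnf4a (-1.66), Ehf (-1.003) and Esrp2 (-0.75). In sorted Foxd1 cells (3.63% and 2.18%) Snai2 (-0.87) and Twist1 (-0.71) were lower. As the claudins rose from E14.5 to E18.5 in ENL WT cells, 11 of the 22 regulators rose and 2 fell (24.8% and 20.6% of all genes), with Klf5 (5.94), Elf5 (4.43), Hnf4a (3.70), Esrp1 (2.84) and Grhl2 (2.72) changing most.

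Across the means of the 11 groups, each claudin had genes of closely similar pattern among 19138 genes with at least 1 CPM in some group. The measure was Pearson's r of log2 CPM, and the groups share libraries' kits, stages and lineages, so the values are descriptions. Closest to Cldn2 were Asb9 (r = 0.998), Afm and Sult1b1, and closest to Cldn19 were Agxt2 (0.994), Cyp2j11 and Adgrg1. Closest to Cldn8 were Aqp3 (0.993), a collecting duct water channel, Bsnd and Kcnq1. Among the 3 closest to Cldn7 were Elf3 (0.988) and Muc4. For Cldn4 they were Setd1b (0.993), Sun2 and Casz1, and for Cldn3 Mmp15 (0.971), Tesc and Dab2ip. For Cldn10 they were Rhcg (0.961), Cabcoco1 and Thrb, and for Cldn16 Sfxn5 (0.992), Tmem127 and Tmem45b. For Cldn1 they were Atp6v0d2 (0.991), Ptprb and Adgrf5, and for Cldn6 Rph3al (0.992), Map3k21 and Pip4k2c.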

How the data were processed

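The deposited values were whole-number counts per gene for 32 libraries in 4 tables. According to the labels and the study's methods, the authors sorted tdTomato-positive cells by flow cytometry where stated, built whole-kidney and sorted-cell libraries with different kits, aligned reads to mm10 with HISAT2 and counted them with HTSeq without regard to strand, and tested with edgeR; the annotation release is not given in the sources used here. Gene names were taken from GENCODE vM21, which named 55536 of the identifiers and left 270 without a name.

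Counts were filtered with filterByExpr (minimum count 10, minimum total 15), scaled by trimmed mean factors and tested with edgeR 4.0.16 in R 4.3.3 (quasi-likelihood, Benjamini-Hochberg over all tested genes, two-sided). Genotype calls needed an adjusted p under 0.05 and a fold over 1.5, stage calls an adjusted p under 0.01 and a fold over 2, and differences of effects an adjusted p under 0.05. SE is the log2 fold change over the root of F. The fits were tested on simulated counts. DESeq2 1.42.0, edgeR's exact test, other scalings, no filter, a replicate block, other sets of libraries and leaving out each library were tried. Over 33 replicate pairs r was 0.974 to 0.993 and no pair agreed within sampling noise. By chi-square per degree of freedom, the Six2 ENL WT whole-kidney pair differed most (164, with r = 0.99). The other pairs reached at most 63.2. Libraries with the same replicate number deviated together only weakly (r from -0.125 to 0.14), so the numbers were not taken as pairs. The sorted Foxd1 libraries were the shallowest, and 3 counts there equal 0.841 to 1.22 CPM, against 0.0191 to 0.0446 CPM elsewhere.

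The 10 members and all lists were chosen with earlier results of these data known. All members are named in each comparison. Of the other claudins, junction partners and regulators, up to 5 called genes per comparison with the largest change are named, and for each member the 3 genes with the most similar group means, except that some genes these rules name are not reported here.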

Additional observations from a re-analysis of the deposited data

Results flagged for a closer look

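In 5 tests the effect of ENL-T1 on a claudin differed between stages or between Cre lineages. Between stages of the sorted Six2 cells, the log2 fold change at E18.5 minus that at E14.5 was -2.68 for Cldn10, which was higher in 3 of 3 mutant libraries than in any ENL WT library at E14.5 and lower in 3 of 3 at E18.5. It was -1.25 for Cldn1, higher in the mutant mean at E14.5 with overlapping groups, and lower in 3 of 3 mutant libraries at E18.5.

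Between lineages in whole kidneys, the log2 fold change of the Foxd1 set minus that of the Six2 set was 1.00 for Cldn2, 0.47 for Cldn10 and -0.81 for Cldn16. Cldn2 and Cldn10 were lower in every mutant library of both sets, and Cldn16 was lower in every mutant library of the Foxd1 set and slightly higher in both of the Six2 set. Read length differed between the sets, and its part cannot be told apart from that of the Cre lineage. In the 20 groups of 4 libraries of the sorted Foxd1 cells, 0 libraries stood apart by Dixon's test, where chance gives about 1 group in 20.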

How the results depend on the processing

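Of 678 values of claudin log2 fold changes under other tests, scalings, filters and fits, 667 kept their direction and their side of the threshold. The sign turned for Cldn7 at E14.5 with library size alone (0.0024) and for Cldn8 at E14.5 with the replicate block (0.29), neither called. The replicate block left the number of claudins called as it was in every comparison (3 higher and 3 lower in Six2 ENL-T1 kidneys). In sorted Six2 cells at E18.5 the number called higher was 2 with library size alone and 0 in the fit of all 12 sorted libraries, where 3 were called lower. Without a low-count filter 1 claudin (Cldn3) had a called positive difference between stages. In the fit of all 12 sorted Six2 libraries the E18.5 log2 fold changes of Cldn3, Cldn8 and Cldn19 were 0.99, -0.88 and -0.85. The cause of the calls lost in it was not tested.

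Leaving out each library in turn gave 704 values, of which 636 kept direction and side. The numbers called then ranged from 1 to 2 higher and 0 to 1 lower at E14.5, from 1 to 2 higher and 3 to 5 lower at E18.5, from 0 to 1 positive differences between stages, from 0 to 2 lower in sorted Foxd1 cells, and from 1 to 5 positive and 0 to 2 negative differences between lineages. The signs that turned belonged to claudins without a call in all libraries. At E14.5 the log2 fold changes ranged from -1.53 to 0.37 for Cldn2, -0.66 to 0.011 for Cldn3, -0.060 to 1.29 for Cldn4, -0.25 to 0.20 for Cldn7, -0.80 to 0.73 for Cldn8 and -0.15 to 0.96 for Cldn19. At E18.5 they ranged from -0.20 to 0.073 for Cldn4 and -0.020 to 0.91 for Cldn16. In the Six2 whole kidneys they ranged from -0.073 to 0.22 for Cldn6 in ENL-T1, -0.22 to 0.046 for Cldn16 in ENL-T3, -0.16 to 0.071 for Cldn4 between the mutants, -0.025 to 0.055 for Cldn8 between the mutants and -0.36 to 0.059 for Cldn10 between the mutants. In sorted Foxd1 cells Cldn4 ranged from -0.18 to 0.30. Differences of effects ranged from -1.37 to 0.0025 for Cldn4 and -0.11 to 0.22 for Cldn6 between stages and from -0.58 to 0.037 for Cldn3, -0.39 to 0.033 for Cldn4, -0.037 to 0.30 for Cldn6 and -0.20 to 0.074 for Cldn7 between lineages. Depth limited the sorted Foxd1 cells most, where Cldn3 and Cldn16 had too few counts to be tested.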
